A study of Mus musculus with 2 samples.

Results

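Axons find their targets by reading a small set of molecular cues, and the genes for those cues and their receptors are the subject here. Of the 32285 genes counted, 71 were chosen by symbol: 20 semaphorins, 9 plexins, 2 neuropilins, 8 ephrins, 14 Eph receptors, 7 Slit and Robo genes, and 11 genes named for netrins, Dcc or Unc5. Antisense genes and the Slitrk genes were left out, which removed 3 genes antisense to Plxna4. Of the 11 genes in the netrin group, Unc50 and Unc5cl share only the letters of their symbols with the Unc5 receptors and are not guidance receptors.

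The cells came from retinas of mice carrying the allele Gt(ROSA)26Sortm9(CAG-tdTomato)Hze on a B6.Cg background, a Cre-dependent red fluorescent reporter. The mice were 14 weeks old, and an AAV (adeno-associated virus) had been injected 8 weeks earlier. Red cells were collected by flow sorting and sequenced as 2 droplet libraries, labelled Muller (taken as the test group, since the other is labelled control; 4.9% of cells were red) and MullerControl (10% red). Muller cells and MullerControl cells below are the cells of these libraries, whatever their type. Both groups share strain, age and interval, and the labels give neither the cargo nor the promoter of either virus nor the number of mice pooled. The series concerns the reported conversion of Müller glia, the principal glia of the retina, into retinal ganglion cells (RGCs). With 1 library per group there are no replicates, so no test between the groups was possible, and every interval below is a 95% interval that covers counting error only.

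Semaphorins signal through plexins, often with a neuropilin as co-receptor, and mostly repel growing axons. Ephrins are bound to the cell surface and signal to Eph receptors on touching cells, Slits repel axons through Robo receptors, and netrins attract through Dcc or repel through Unc5 receptors. In the retina these families are known for ordering the map of ganglion cell axons in the brain, for guiding axons to the optic disc, and for sorting the processes of bipolar and amacrine cells into layers of the inner plexiform layer.

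After removal of poor barcodes and likely doublets, 10757 Muller and 9538 MullerControl cells remained, with medians of 1502 and 1589 transcripts (unique molecular identifiers, UMIs) per cell, and 40 barcode sequences occurred in both libraries. Cells were sorted into classes by marker genes, none of them a guidance gene, and a class is called by the type whose markers it carries. There were 891 Müller-like cells from the Muller and 575 from the MullerControl library, 4430 and 6467 rod-like cells, 263 and 714 cone-like cells, 2848 and 847 bipolar-like cells, 662 and 187 amacrine-like cells, and 94 and 144 microglia-like cells. Among amacrine-like cells, 37.8% and 35.8% lay under 1.5 times the gate. The RGC gate held 2 Muller cells and 0 MullerControl cells, so guidance genes of RGCs could not be described. No gene counted was named for the reporter or a vector. Levels below are UMIs summed over the cells of a class in 1 library, as counts per 1000000 UMIs of that sum (CPM). They compare 1 gene across classes or libraries, never 1 gene with another, since 3' end counts are not scaled by length.

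Upstream sequences of 4 members are shown because each stands for a class in which the results below place it: Epha5 for Müller-like cells, Epha7 for bipolar-like cells, Sema4g for amacrine-like cells and Slit2 for bipolar-like cells of the OFF pathway. Each line gives the 250 bases before the RefSeq transcription start in GRCm38.p6, 5′ to 3′ on the gene's strand, and capitals mark a motif match. Epha7 has 2 starts in the table, of which the first was used.
Epha5, chr5:84417383-84417632 (- strand): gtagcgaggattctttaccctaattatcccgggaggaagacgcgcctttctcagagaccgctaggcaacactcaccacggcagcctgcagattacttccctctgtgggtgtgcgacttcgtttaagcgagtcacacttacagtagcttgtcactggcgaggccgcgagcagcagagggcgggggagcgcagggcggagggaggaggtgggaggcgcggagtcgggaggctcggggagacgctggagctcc
Epha7, chr4:28812881-28813130 (+ strand): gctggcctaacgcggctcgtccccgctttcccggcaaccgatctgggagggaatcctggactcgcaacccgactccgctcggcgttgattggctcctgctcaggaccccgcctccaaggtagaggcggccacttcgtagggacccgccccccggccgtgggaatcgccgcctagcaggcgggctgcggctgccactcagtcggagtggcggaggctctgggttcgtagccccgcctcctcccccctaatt
Sema4g, chr19:44989094-44989343 (+ strand): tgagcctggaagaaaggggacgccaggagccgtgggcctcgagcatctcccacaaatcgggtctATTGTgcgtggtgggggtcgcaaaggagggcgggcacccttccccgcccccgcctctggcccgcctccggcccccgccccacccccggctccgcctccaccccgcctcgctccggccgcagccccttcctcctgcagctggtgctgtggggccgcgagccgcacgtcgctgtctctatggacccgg
Slit2, chr5:47982905-47983154 (+ strand): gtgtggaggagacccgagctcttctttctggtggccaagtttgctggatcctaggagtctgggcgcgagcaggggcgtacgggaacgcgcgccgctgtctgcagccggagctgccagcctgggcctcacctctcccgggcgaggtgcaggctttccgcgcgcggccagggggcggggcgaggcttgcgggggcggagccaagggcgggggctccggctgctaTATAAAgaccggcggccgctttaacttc
The motifs searched on both strands were the SOX core ACAAT, the OTX or CRX core GGATTA and the TATA box TATAAA, which was added after the sequences had been read. They do not overlap one another in these windows. The Sema4g window held 1 SOX core, on the minus strand of the gene, and the Slit2 window held 1 TATA box. Over 32851 mouse promoters of the same length, 27.7% held the SOX core, 6.25% the OTX or CRX core and 12.4% the TATA box. The 4 windows had a GC content of 62.4% for Epha5, 69.2% for Epha7, 73.2% for Sema4g and 69.6% for Slit2, all above the upper quartile of 61.2% over all promoters. Of the 71 members, 61 were in the promoter table.

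In kept cells the 71 genes held 30042 UMIs (Muller) and 19021 UMIs (MullerControl), and 11 of them had at least 1000 UMIs over both. The Eph receptors gave the most, with 11602 and 6264 UMIs, and Epha5 alone gave 5611 and 3291. At least 50 UMIs over both libraries were found for 59 members. Of the rest, Epha2 (17 and 18 UMIs) and Ephb4 (19 and 23) had 20 to 49, and 10 had under 20: Sema3c, Sema3g, Plxnb3, Epha1, Robo3, Robo4, Slit3, Ntn1, Ntn5 and Unc5cl. Ntn1, the netrin classically tied to axon exit at the optic disc, had 0 UMIs in Muller and 1 in MullerControl cells. Robo4, an endothelial Robo, had 0 and 7. Another 7 members passed 50 UMIs over all cells but not in any 1 class, namely Sema4f, Sema6d, Plxnd1, Efna4, Epha6, Ephb6 and Slit1. The remaining 52 members are described by class.

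**Figure D1:**
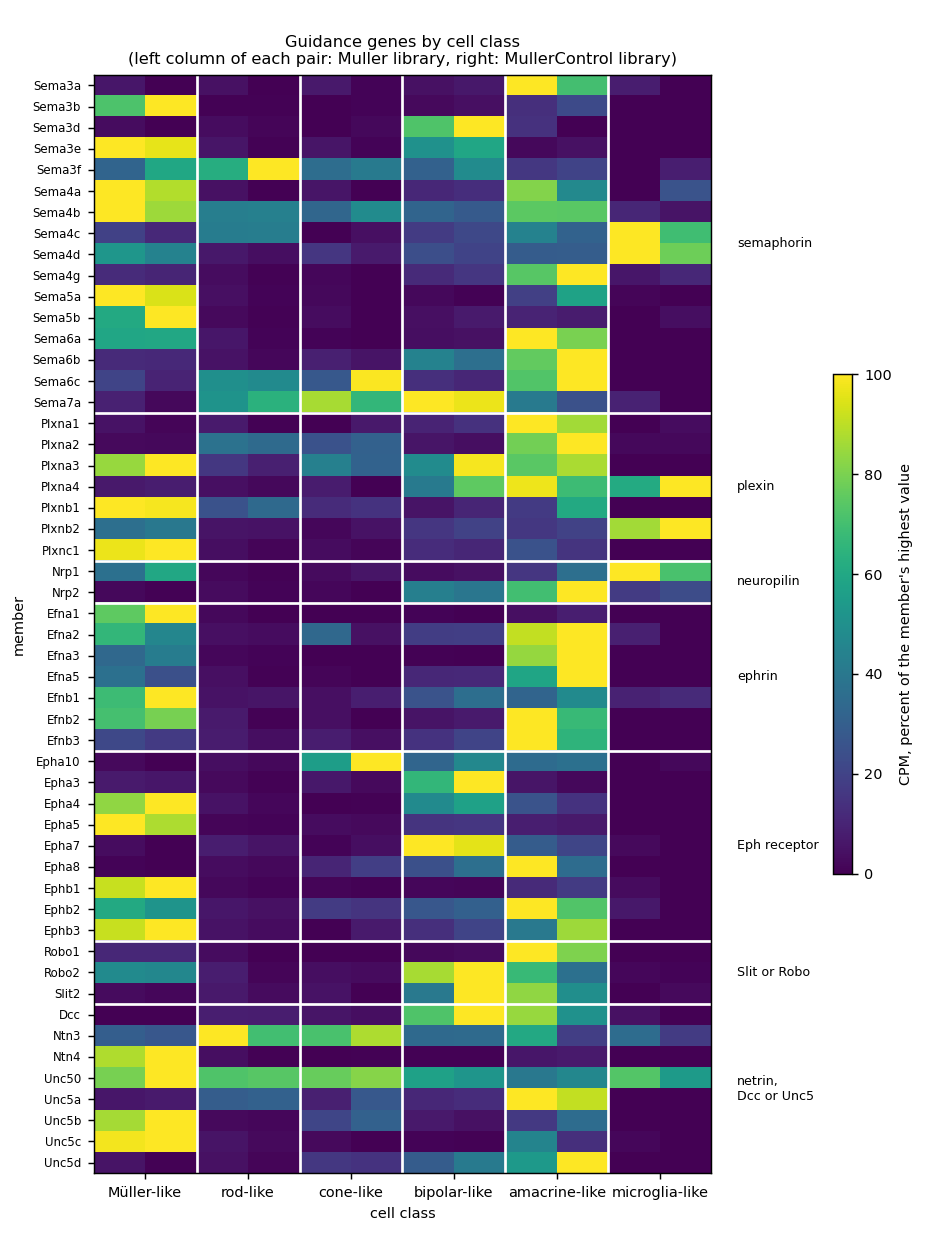
CPM of the 52 members with at least 50 UMIs in a class (rows, by family) in 6 marker-gated classes (column pairs, Muller library left and MullerControl library right), as a percent of each member's highest value. Müller-like and amacrine-like columns hold most of the bright cells, with 19 members highest in Müller-like and 16 in amacrine-like cells in both libraries.

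Müller-like and amacrine-like cells held the highest level of most of the 52 members, with no margin over the next class required. Some margins were small. Unc50 had 113 CPM in Müller-like and 109 CPM in cone-like Muller cells, and Plxna3 8.18 CPM in Müller-like and 8.06 CPM in bipolar-like MullerControl cells. The class with the highest CPM was the same in both libraries for 46 of the 52 members, against 74.3% of all genes measured in the same way. That class was Müller-like for 19 members (13.2% of all genes), amacrine-like for 16 (21.9%), bipolar-like for 5 (8.83%), microglia-like for 4 (11.9%), rod-like for 1 (7.97%) and cone-like for 1 (10.5%). Sema3f was the member highest in rod-like cells and Epha10 the one highest in cone-like cells. The 6 members whose highest class differed between the libraries were Slit2, Dcc, Epha8, Plxna4, Efnb2 and Ntn3. A stricter pattern, a level at least 3-fold above every other class in both libraries, was met by 15 of the 52 members, and by 14.5% of all genes. The leading class was Müller-like for 7 members (4.21% of all genes), bipolar-like for 3 (1.52%) and amacrine-like for 5 (2.65%).

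Müller-like cells led 4 ligands: Sema3b, Sema5b, Ntn4 and Efna1. Sema3b, a secreted class 3 semaphorin, had 27.7 CPM (20.7 to 36.3) in Muller and 38.4 CPM (29.4 to 49.3) in MullerControl cells of this class. Its next class was amacrine-like, with 5.15 and 8.58 CPM. Ntn4, a netrin found in basement membranes, stood further apart, with 70.3 CPM (58.8 to 83.4) in Muller and 79.9 CPM (66.6 to 95.1) in MullerControl Müller-like cells and 4.69 and 5.72 CPM in amacrine-like cells. Sema5b, a transmembrane semaphorin with thrombospondin repeats, had 22.9 CPM (16.6 to 30.9) and 37.8 CPM (28.8 to 48.6) in Müller-like cells, and at most 3.75 CPM in any other class. Efna1, an ephrin held to the membrane by a lipid anchor, had 25.6 CPM (18.9 to 33.9) and 34.0 CPM (25.5 to 44.4) in Müller-like cells. In every other class it had at most 2.86 CPM, and it was at 0 in cone-like and microglia-like cells of both libraries.

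Secreted class 3 semaphorins fell into different cells. Sema3a, the prototype repellent of this class, was led by amacrine-like cells, with 34.7 CPM (27.2 to 43.5) in Muller and 24.3 CPM (14.2 to 38.9) in MullerControl cells, against 1.58 and 2.17 CPM in bipolar-like cells. Sema3d was led by bipolar-like cells, with 11.9 CPM (9.77 to 14.4) and 16.4 CPM (12.3 to 21.5). Sema3e, the ligand of Plxnd1, had 62.9 and 60.4 CPM in Müller-like cells and 31.9 and 37.2 CPM in bipolar-like cells, and at most 3.56 CPM in the remaining classes. Sema3f, a ligand of Nrp2, was the one member highest in rod-like cells, with 31.0 and 49.6 CPM.

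Membrane-bound semaphorins were spread more widely. Sema4g was led by amacrine-like cells, with 99.3 CPM (86.4 to 114) in Muller and 134 CPM (109 to 164) in MullerControl cells and 15.9 and 21.4 CPM in bipolar-like cells. Sema5a, known in mouse for keeping inner retinal processes out of the outer retina together with Sema5b, had 178 and 168 CPM in Müller-like cells and 33.7 and 103 CPM in amacrine-like cells. Sema6a, which acts through class A plexins in sorting processes into ON and OFF layers, had 107 and 85.8 CPM in amacrine-like and 63.4 and 64.2 CPM in Müller-like cells. Sema4d, a ligand of B plexins with roles in immune cells, was highest in microglia-like cells, with 82.2 and 63.9 CPM. Sema7a, a lipid-anchored semaphorin, ranged from 14.7 to 28.7 CPM over rod-like, cone-like and bipolar-like Muller cells and from 18.3 to 27.9 CPM over the same classes of MullerControl cells.

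The remaining ephrins were amacrine-like and Müller-like. Efnb3, a transmembrane ephrin, was led by amacrine-like cells with 44.1 CPM (35.6 to 53.9) in Muller and 28.6 CPM (17.5 to 44.2) in MullerControl cells, against 9.59 and 7.55 CPM in Müller-like cells. Efna5, a key ephrin of the retinal projection map, had 58.1 and 98.6 CPM in amacrine-like and 36.2 and 23.9 CPM in Müller-like cells. Efnb2 had 55.3 and 37.2 CPM in amacrine-like and 38.9 and 44.1 CPM in Müller-like cells, so its order turned between the libraries. Efnb1 had 38.9 and 56.7 CPM in Müller-like cells, its highest class in both. Over all 8 ephrin genes, rod-like cells reached at most 4.20 CPM, and cone-like cells at most 10.7 CPM, for Efna2 from 9 UMIs in the Muller library.

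Eph receptors divided the classes among themselves. Epha5, a receptor for A ephrins that is graded across the developing retina, had 1405 CPM (1352 to 1459) in Müller-like cells of the Muller library and 1232 CPM (1178 to 1288) in MullerControl ones, above bipolar-like cells with 212 and 220 CPM. Its UMIs occurred in 70.0% of the 891 and 64.0% of the 575 Müller-like cells. After each cell was thinned to 1000 UMIs, the shares were 71.8% and 62.4% of the cells deep enough. They were 19.0% and 18.6% of bipolar-like, 9.79% and 10.5% of amacrine-like, and 1.49% and 0.972% of rod-like cells. Ephb1, a receptor that acts in the crossing of retinal axons at the chiasm, was also led by Müller-like cells, with 91.1 CPM (78.0 to 106) and 99.5 CPM (84.6 to 116), and 11.7 and 17.2 CPM in amacrine-like cells.

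Bipolar-like cells led 2 A receptors. Epha7 had 220 CPM (210 to 230) in Muller and 211 CPM (195 to 227) in MullerControl cells, against 64.2 and 45.7 CPM in amacrine-like cells and 7.46 and 0.630 CPM in Müller-like cells. Epha3 had 47.7 CPM (43.3 to 52.5) and 72.2 CPM (63.3 to 82.1) in bipolar-like cells and at most 5.33 CPM elsewhere. Epha4, which binds ephrins of both types, was high in both Müller-like cells, with 155 and 186 CPM, and bipolar-like cells, with 89.1 and 106 CPM. Epha10, an Eph family member without an active kinase, was highest in cone-like cells, with 34.4 and 61.8 CPM.

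Plexins and neuropilins, the receptors of semaphorins, were also divided. Plxnc1, the receptor of Sema7a, was led by Müller-like cells, with 103 CPM (88.8 to 118) in Muller and 106 CPM (90.4 to 123) in MullerControl cells, against 26.7 and 15.7 CPM in amacrine-like cells. Plxna1 was led by amacrine-like cells, with 43.1 CPM (34.8 to 52.9) and 37.2 CPM (24.3 to 54.5), against 4.28 and 6.20 CPM in bipolar-like cells. Plxna2, a receptor of Sema6a, had 93.3 and 119 CPM in amacrine-like cells and 44.9 and 41.2 CPM in rod-like cells. Plxnb2 was highest in microglia-like cells, with 107 and 124 CPM. Nrp2 was highest in amacrine-like cells, with 131 and 187 CPM, and had 80.5 and 73.2 CPM in bipolar-like cells. Nrp1 was instead highest in microglia-like cells, with 82.2 and 58.5 CPM.

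Slit and Robo genes were found in inner retinal neurons. Robo1 was led by amacrine-like cells, with 33.7 CPM (26.4 to 42.5) in Muller and 27.2 CPM (16.4 to 42.4) in MullerControl cells, and had 3.73 and 3.78 CPM in Müller-like cells. Robo2 had 135 and 155 CPM in bipolar-like, 105 and 57.2 CPM in amacrine-like and 74.0 and 71.8 CPM in Müller-like cells. Slit2, their ligand, was highest in amacrine-like cells of the Muller library (145 CPM, against 70.1 in bipolar-like cells) but in bipolar-like cells of the MullerControl library (173 CPM, against 85.8 in amacrine-like cells). Slit1 and Slit3 did not reach 50 UMIs in any class.

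Netrin receptors were divided among Müller-like, bipolar-like and amacrine-like cells. Dcc, the attractive netrin receptor, had 44.9 and 62.0 CPM in bipolar-like and 52.5 and 31.5 CPM in amacrine-like cells, and 0 UMIs in all Müller-like cells, a count that permits levels below 1.60 CPM (Muller) and 1.89 CPM (MullerControl). Unc5c, a repulsive netrin receptor, had 144 and 147 CPM in Müller-like cells and 66.1 and 20.02 CPM in amacrine-like cells. In bipolar-like cells it had only 1.58 and 0.930 CPM. Unc5d, another of this family, had 6.39 and 0.630 CPM in Müller-like and 67.5 and 126 CPM in amacrine-like cells, the opposite order for these 2 classes. It had 36.5 and 52.1 CPM in bipolar-like cells. Unc5b followed Müller-like cells, with 24.5 and 28.3 CPM, and Unc5a amacrine-like cells, with 26.7 and 24.3 CPM. Ntn3 ranged from 4.08 to 23.3 CPM over all 6 classes and both libraries. Unc50, which is unrelated in function, had 57.2 to 142 CPM in all 6 classes.

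**Figure D2:**
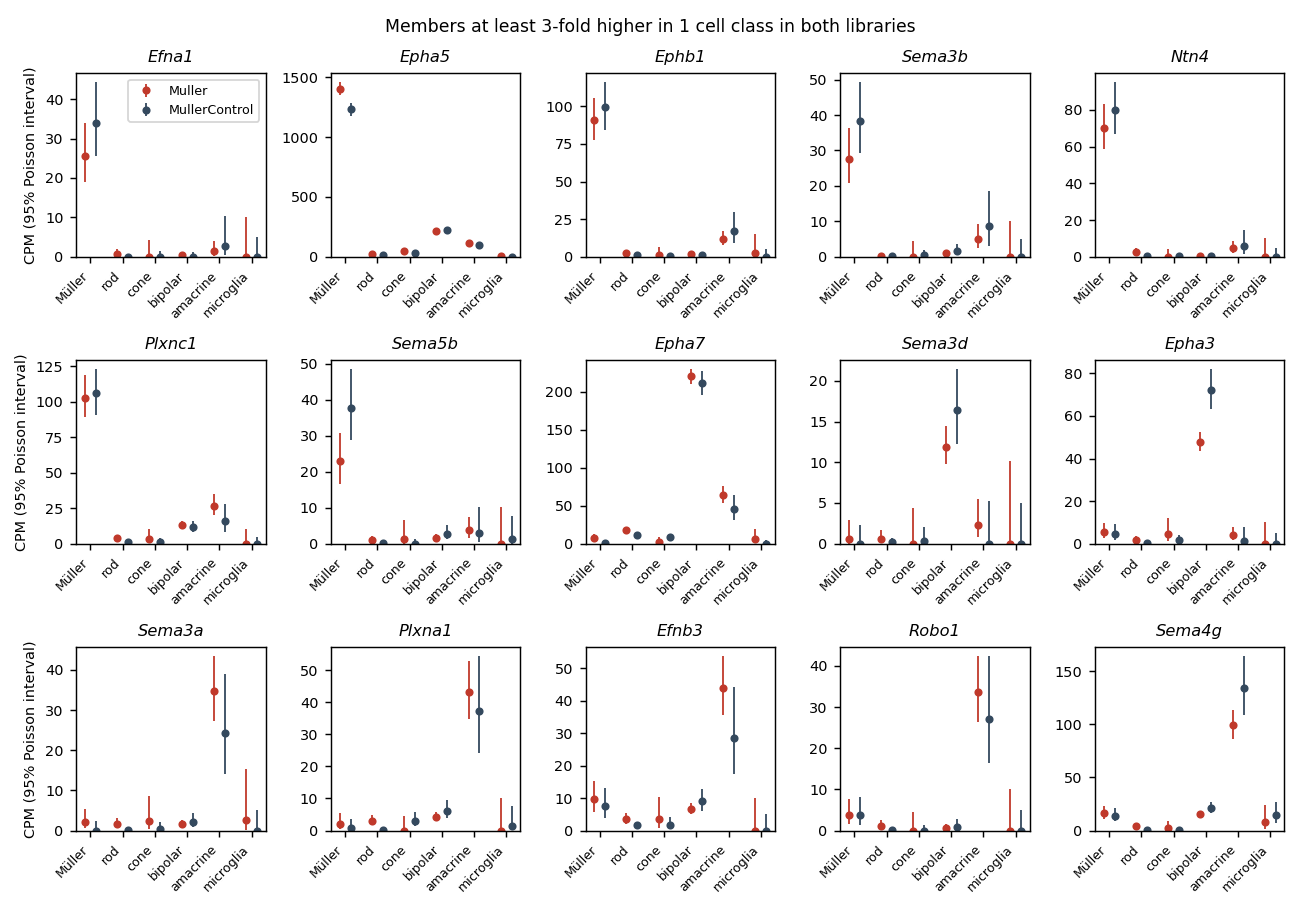
CPM of the 15 members with 1 leading class in 6 classes, for the Muller library (red, left point) and the MullerControl library (dark, right point), with bars for the exact 95% Poisson interval. Müller-like cells lead 7 members, bipolar-like cells 3 and amacrine-like cells 5, and in every panel the leading class is the same in both libraries.

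Genes outside the families whose levels ran most nearly alongside were sought over 6 classes in both libraries, 12 points of log2(CPM + 10) that share libraries and class gates, among 11452 genes. For Epha5 they were Magi3 (Pearson r = 0.99), Cntn1 (0.98) and Nxn (0.98). For Robo2 they were Unc13c (0.99), Auts2 (0.99) and Pcdh9 (0.99), and for Nrp2 they were Slc8a1 (0.99), Cbfa2t3 (0.98) and Gm40841 (0.98). Efnb1 ran with Pknox2 (0.98), Sept8 (0.97) and Mpv17 (0.97), Plxna2 with Rasgef1a (0.97), Gm42716 (0.95) and Tbc1d30 (0.95), Sema3f with Immp1l (0.98), Hmgn2 (0.96) and Mnat1 (0.95), and Unc50 with Smpd2 (0.94), Tmem208 (0.94) and Morn2 (0.91). These coefficients describe these 2 libraries and carry no test.

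Inside the bipolar-like cells, 9 of 26 members with enough UMIs had 1 leading subclass, at least 3-fold above the other 2 in both libraries, against 3.51% of all genes. Subclasses were gated on markers of rod bipolar cells (595 Muller and 182 MullerControl cells), of cone bipolar cells of the ON pathway (1506 and 416) and of those of the OFF pathway (261 and 106). ON and OFF cells answer to light increments and decrements and end in separate layers of the inner plexiform layer. Sema3e was the one member led by rod bipolar-like cells, with 74.4 CPM (63.5 to 86.5) in Muller and 92.6 CPM (73.3 to 115) in MullerControl cells, against 21.9 and 14.9 CPM in ON and 2.81 and 0 CPM in OFF cone bipolar-like cells.

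ON cone bipolar-like cells led Epha7, Epha8, Sema3d and Unc5d. Epha7 had 337 CPM (320 to 354) in Muller and 342 CPM (313 to 373) in MullerControl cells of this subclass, against 82.9 and 86.2 CPM in OFF and 60.6 and 61.0 CPM in rod bipolar-like cells. Epha8 had 24.6 and 33.3 CPM, against 1.41 and 9.58 CPM in OFF cells and 0 UMIs in rod bipolar-like cells of both libraries. Unc5d had 38.6 and 78.7 CPM in ON cells, against 10.7 and 15.2 CPM in rod bipolar-like cells.

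OFF cone bipolar-like cells led Slit2, Plxna4, Epha3 and Efnb1. Epha3 had 264 CPM (228 to 305) in Muller and 254 CPM (208 to 307) in MullerControl OFF cells, against 37.7 and 57.0 CPM in ON cells. Plxna4, a receptor of Sema6a, had 70.3 CPM (52.2 to 92.7) and 120 CPM (88.9 to 158), against 6.32 and 6.11 CPM in ON cells. Efnb1 had 47.8 and 62.3 CPM in OFF and 12.4 and 17.0 CPM in ON cells. Slit2 had 219 CPM (186 to 257) and 752 CPM (671 to 840) in OFF cells, against 45.6 and 38.0 CPM in ON cells. Its receptor gene Robo2 had the reverse order, with 15.5 and 24.0 CPM in OFF cells, 159 and 190 CPM in ON cells and 125 and 151 CPM in rod bipolar-like cells.

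**Figure D3:**
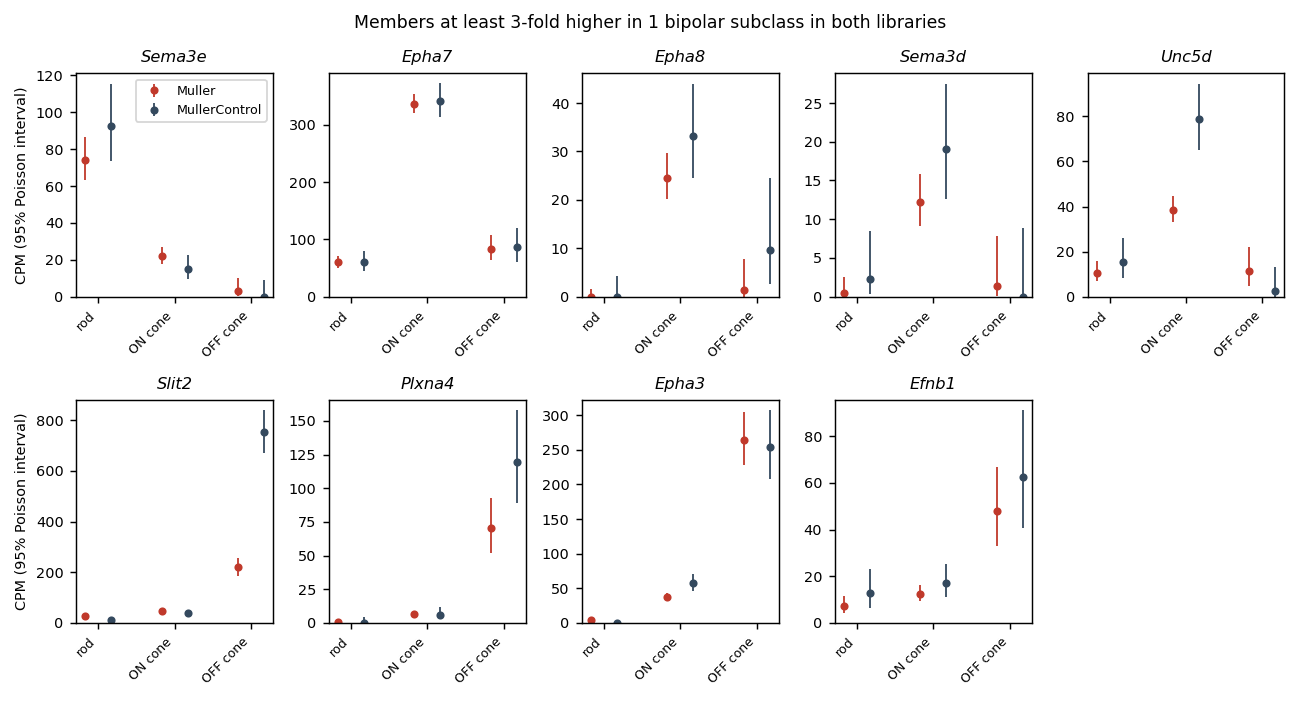
CPM of the 9 members with 1 leading bipolar subclass in rod, ON cone and OFF cone bipolar-like cells, for the Muller library (red, left point) and the MullerControl library (dark, right point), with exact 95% Poisson intervals. Slit2 in OFF cells is the panel in which the libraries lie furthest apart, at 219 and 752 CPM.

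In Müller-like cells, the class named in the labels, guidance genes differed little between the libraries. Of 29 members with 50 or more UMIs in the class, 0 were at least 1.5-fold higher in the Muller library and 3 were at least 1.5-fold lower, against 3.81% and 4.12% of 8449 genes treated in the same way (7.93% either way). The median log2 ratio, Muller over MullerControl, was -0.04 over the members and -0.04 over all genes. The 3 lower genes were Sema3f (30 UMIs, 16.0 CPM, against 47 UMIs, 29.6 CPM, log2 ratio -0.87, interval -1.60 to -0.20), Sema5b (22.9 against 37.8 CPM, -0.71, interval -1.32 to -0.13) and Nrp1 (30.4 against 49.1 CPM, -0.69, interval -1.21 to -0.18). Nrp1 is the co-receptor of Sema3a. At the other end lay Efna5, with 36.2 against 23.9 CPM (log2 ratio 0.58, interval 0.01 to 1.21), and Efna2, with 20.8 against 14.5 CPM (0.50, interval -0.26 to 1.33). The count of 0 higher members depended on the settings. Efna5 passed 1.5-fold with 0.5 in place of 1 count added (0.59) and without the cell holding most of its UMIs (0.69). Without doublet removal 3 members were higher, namely Efna5 (0.79), Sema4g (0.69) and Efna2 (0.66). Efnb1 had a log2 ratio of -0.54, and Sema4d and Sema4g had 0.23 and 0.24. The summed markers of Müller glia were 34356 CPM in Muller and 43427 CPM in MullerControl Müller-like cells, and those of bipolar cells 585 and 95.1 CPM. Their part in these ratios was not tested.

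In rod-like cells 8 of 20 members were at least 1.5-fold higher in the Muller library and 1 was lower, against 9.31% and 1.52% of 10091 genes (10.8% either way). The higher ones were Robo2, Sema5a, Epha4, Slit2, Unc5c, Sema4d, Epha5 and Epha7. The counting interval left out equal levels for 7 of these 8, and that of Sema4d did not (-0.001 to 1.63). All 8 had their highest level in another class. Rod-like cells were the highest class in both libraries for only 1 of the 52 members and 7.97% of all genes. Robo2 had 12.6 CPM (66 UMIs) in Muller and 2.40 CPM (23 UMIs) in MullerControl cells (log2 ratio 2.35, interval 1.69 to 3.14). Sema5a had 7.26 and 2.09 CPM (1.76, interval 0.98 to 2.65), Epha4 8.79 and 3.24 CPM (1.42, interval 0.75 to 2.15) and Slit2 11.8 and 4.91 CPM (1.26, interval 0.70 to 1.85). Sema3f, highest in rod-like cells of all classes, was lower, with 31.0 and 49.6 CPM (-0.67, interval -0.95 to -0.42). Plxnb1 and Sema7a had log2 ratios of -0.44 and -0.30, and Unc5a -0.06.

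Markers of some other cell types moved with these values in rod-like cells. All 16 bipolar markers were found in both libraries and summed to 1046 CPM in Muller and 287 CPM in MullerControl rod-like cells. All 14 Müller markers summed to 1130 and 394 CPM, and the amacrine markers, 12 of 13 found and Chat at 0 in both, to 366 and 180 CPM. Horizontal cell markers (208 and 202 CPM), cone markers (320 and 283 CPM) and microglia markers (33.6 and 35.03 CPM) lay closer together. RGC markers summed to 43.9 and 21.7 CPM, with Pou4f1, Pou4f2 and Pou4f3 at 0 in both libraries. Endothelial markers summed to 44.7 and 18.7 CPM, pigment epithelium markers to 27.9 and 10.6 CPM and astrocyte markers to 4.39 and 0.627 CPM. Pericyte markers had 0.764 and 1.57 CPM. The rod markers themselves summed to 60925 and 69782 CPM, and the median depth was 959.5 and 1359 UMIs per cell. When all cells were clustered, the largest rod cluster differed: one with 1782 Muller and 1491 MullerControl cells for the Muller library, and one with 1603 and 2902 for the MullerControl library. The part of these differences in the rod-like ratios was not tested. With the gate raised 2-fold, 5 members and not 9 were past 1.5-fold, 4 of them higher.

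**Figure D4:**
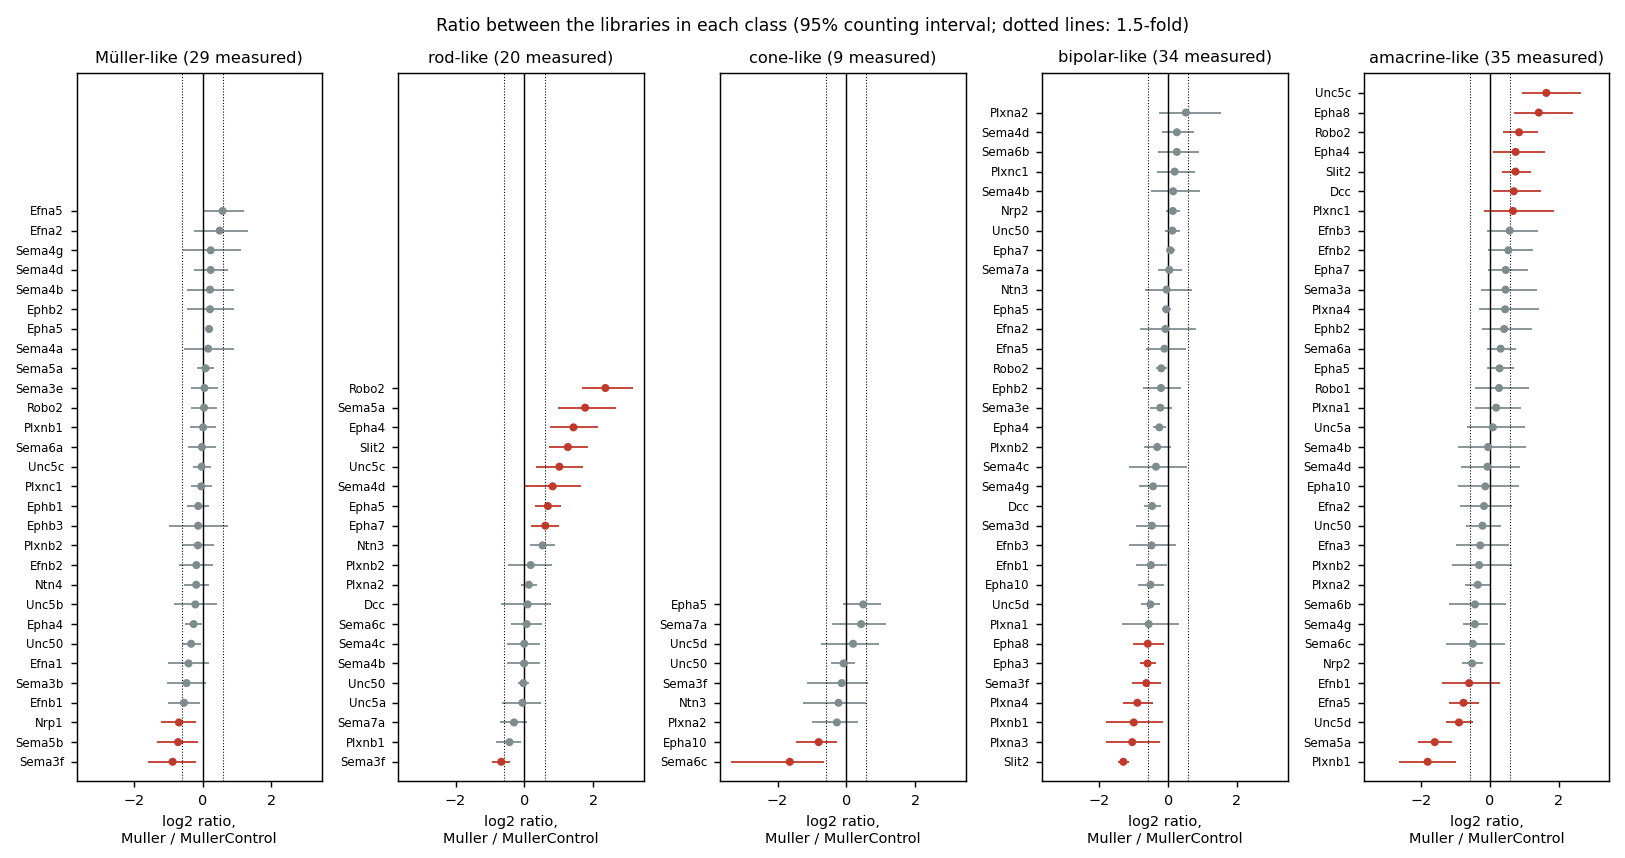
Log2 ratio of CPM, Muller over MullerControl, for each measured member in 5 classes, with 95% counting intervals. Red points are at least 1.5-fold apart (dotted lines), and they number 12 in amacrine-like cells, 9 in rod-like, 7 in bipolar-like, 3 in Müller-like and 2 in cone-like cells.

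Cone-like cells allowed 9 members to be measured, and 0 were higher and 2 lower, against 3.96% and 5.46% of 7697 genes (9.42% either way). Sema6c, a transmembrane semaphorin, had 6 UMIs (7.12 CPM) in Muller and 70 UMIs (25.6 CPM) in MullerControl cells (log2 ratio -1.64, interval -3.34 to -0.65). Epha10 had 34.4 and 61.8 CPM (-0.80, interval -1.47 to -0.27). The others lay within 1.5-fold, among them Plxna2 (-0.27), Ntn3 (-0.23), Unc50 (-0.08), Unc5d (0.20), Sema7a (0.43) and Epha5 (0.49). In microglia-like cells 4 members were measured and 0 were past 1.5-fold, against 6.29% of 3261 genes higher and 4.78% lower (11.1% either way).

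Bipolar-like cells of the Muller library had lower levels of 7 of 34 members and higher levels of 0, against 5.12% and 2.82% of 10804 genes (7.94% either way). The median log2 ratio was -0.29 over the members and -0.04 over all genes. Slit2 had 70.1 CPM (623 UMIs in 317 of 2848 cells) in Muller and 173 CPM (559 UMIs in 115 of 847 cells) in MullerControl cells (log2 ratio -1.31, interval -1.47 to -1.14). Plxna3 had 3.94 and 8.06 CPM (-1.05, interval -1.81 to -0.24), Plxnb1 3.60 and 7.13 CPM (-1.002, interval -1.80 to -0.15) and Plxna4 12.7 and 23.6 CPM (-0.90, interval -1.32 to -0.45). Sema3f, Epha3 and Epha8 completed the 7. With the gate raised 2-fold, 4 were lower and 1 higher, Plxna4 had a log2 ratio of -1.52 and Plxnc1 one of 0.65. The bipolar markers summed to 16399 and 16479 CPM in these cells. At the upper end, Plxna2 had a log2 ratio of 0.51 (-0.27 to 1.55), Sema6b 0.25, Sema4d 0.25 and Plxnc1 0.19. Epha7 and Epha5, the members with most UMIs in this class, lay close to equal, with 220 against 211 CPM and 212 against 220 CPM.

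Slit2 differed most between the libraries in OFF cone bipolar-like cells, where its log2 ratio was -1.77 (-2.06 to -1.50). It was 1.19 (0.29 to 2.51) in rod bipolar-like cells, from 26.3 and 10.6 CPM, and 0.24 (-0.17 to 0.72) in ON cone bipolar-like cells, from 45.6 and 38.0 CPM. Of 12 members measured in OFF cells, Slit2, Plxna4 and Dcc were past 1.5-fold, all lower, against 5.05% of 4534 genes lower and 4.3% higher. The counting interval left out equal levels for 2 of these 3. The make-up of the OFF cells differed as well. Irx6, a transcription factor of particular OFF types, had 119 and 326 CPM, Erbb4 46.4 and 134 CPM, and Vsx1 184 and 50.3 CPM. An Irx6 UMI was found in 27 of 261 Muller and 28 of 106 MullerControl cells, whose median depths were 2373 and 4136 UMIs. In those cells Slit2 had 1094 CPM (898 to 1319) and 1958 CPM (1734 to 2204), and the log2 ratio was -0.83 (-1.17 to -0.52). In the OFF cells without an Irx6 UMI it had 76.8 CPM (56.5 to 102) and 137 CPM (97.3 to 189), and the log2 ratio was -0.85 (-1.49 to -0.18). In OFF cells with a Vsx1 UMI, 34 Muller and 13 MullerControl cells, it had 384 CPM (280 to 514) and 1094 CPM (862 to 1370), and the log2 ratio was -1.50 (-2.08 to -0.96). The Vsx1 and Irx6 groups share cells. In MullerControl OFF cells, 76 Slit2 UMIs lay in cells with a Vsx1 UMI, and only 38 in all cells without an Irx6 UMI. The ratio was nearer to 0 than over all OFF cells in each of these groups, and in cells with a Vsx1 UMI it lay at the upper limit of the interval of all OFF cells. These groups were chosen after the values had been seen, and the part of the marker differences in the Slit2 ratio was not tested.

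In ON cone bipolar-like cells 1 of 25 members was higher and 6 were lower, against 3.36% and 6.7% of 9398 genes. The counting interval left out equal levels for 5 of the 6 lower members but not for the higher member. Unc5d had the lowest log2 ratio among the 25, -1.03 (-1.38 to -0.68). Cpne9 and Tshz2, markers of ON types, had 9.02 and 11.7 CPM in Muller and 65.2 and 79.4 CPM in MullerControl cells. The other ON markers lay closer together between the libraries. Scgn had 565 and 494 CPM, Cabp5 1753 and 1518, Isl1 1172 and 1027, Grm6 564 and 640, Trpm1 1376 and 1447, and Igfn1 29.1 and 24.4 CPM. Unc5d itself had 148 CPM (89.4 to 232) and 268 CPM (194 to 359) in the 35 Muller and 45 MullerControl cells with a Tshz2 UMI. The log2 ratio there was -0.81 (-1.71 to -0.04). Where neither Cpne9 nor Tshz2 was found, Unc5d had 34.2 and 55.1 CPM, a log2 ratio of -0.70 (-1.11 to -0.26). Both ratios were nearer to 0 than over all ON cells and lay inside the interval of all ON cells, the second near its upper limit. These groups, too, were chosen after the values had been seen. In rod bipolar-like cells 7 members were measured and Slit2 was the one past 1.5-fold, against 4.53% of 6794 genes higher and 4.56% lower.

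**Figure D5:**
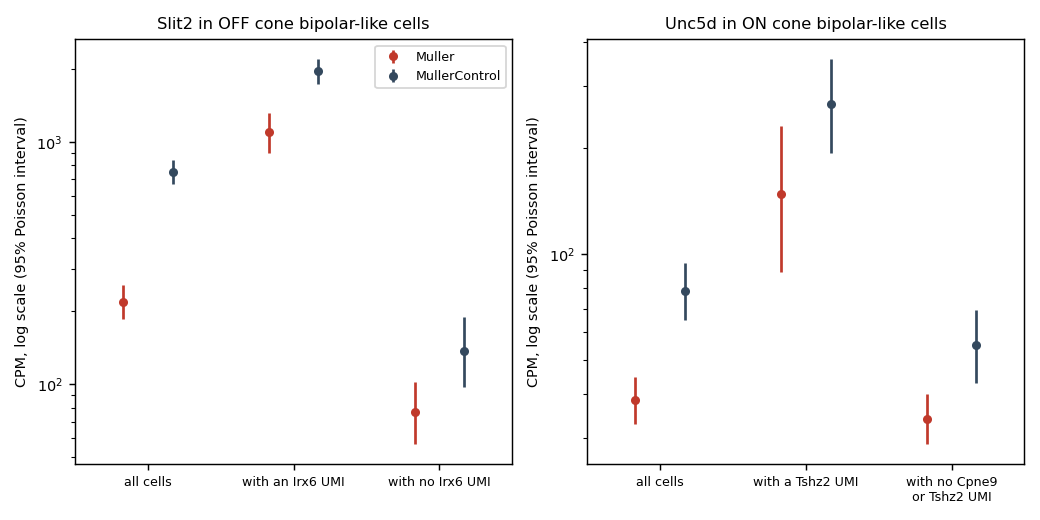
CPM on a log axis of Slit2 in OFF cone bipolar-like cells and of Unc5d in ON cone bipolar-like cells, in all cells of the subclass and in cells with or without a UMI of a subtype marker, for the Muller library (red, left point) and the MullerControl library (dark, right point), with exact 95% Poisson intervals. The marker splits the level in both libraries: Slit2 has 1094 and 1958 CPM with an Irx6 UMI and 76.8 and 137 CPM without.

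Amacrine-like cells had the most members past 1.5-fold, 7 higher and 5 lower of 35 measured, against 6.26% and 9.82% of 8287 genes (16.1% either way). Unc5c had 66.1 CPM (141 UMIs) in Muller and 20.02 CPM (14 UMIs) in MullerControl cells (log2 ratio 1.63, interval 0.93 to 2.63). Epha8 had 56.7 and 20.02 CPM (1.41, interval 0.70 to 2.42), Robo2 105 and 57.2 CPM (0.84, interval 0.38 to 1.39) and Epha4 47.3 and 27.2 CPM (0.74, interval 0.08 to 1.59). Slit2, Plxnc1 and Dcc were the other higher ones. The counting interval left out equal levels for 6 of the 7 higher and 4 of the 5 lower members. With the gate raised 2-fold, the log2 ratio was 0.38 for Robo2, 0.53 for Epha8 and 0.35 for Epha4, all within 1.5-fold. On the lower side stood Plxnb1, a receptor of Sema4d, with 11.7 and 41.5 CPM (-1.82, interval -2.66 to -1.001), Sema5a with 33.7 and 103 CPM (-1.61, interval -2.10 to -1.12), Unc5d with 67.5 and 126 CPM (-0.90, interval -1.29 to -0.50), Efna5 with 58.1 and 98.6 CPM (-0.77, interval -1.20 to -0.32), and Efnb1. With the raised gate, Plxnb1 had -2.86 and Efna5 -1.40.

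The amacrine-like cells of the libraries were made up of different subtypes. Cells with GABAergic markers were 51.1% of the Muller and 15.5% of the MullerControl ones (338 and 29 cells), and cells with glycinergic markers 30.7% and 69.0% (203 and 129 cells). The levels that follow are from the Muller library, in GABAergic-like against glycinergic-like cells. Among the 7 higher members, Unc5c had 97.7 against 11.1 CPM, Robo2 160 against 19.0, Slit2 195 against 45.9 and Epha8 61.2 against 26.9 CPM. Epha4 had 57.8 against 26.9, Dcc 57.8 against 34.8 and Plxnc1 35.7 against 9.49 CPM. Among the 5 lower members, Plxnb1 had 2.55 against 23.7, Sema5a 15.3 against 68.0 and Unc5d 50.1 against 108 CPM. Efna5 had 34.0 against 96.5 and Efnb1 24.6 against 6.33 CPM. The same comparison was not made for the 519 higher and 814 lower genes among all 8287. Whether these orders are particular to guidance genes therefore cannot be said. The part of the subtype shares in the ratios was not tested. Among glycinergic-like cells alone Unc5c had 11.1 CPM in both libraries, from 7 and 5 UMIs. There 11 members were measured, and 1 was higher and 3 were lower, against 6.73% and 9.7% of 4693 genes. The counting interval of the higher member included equal levels. The lower ones were Sema6a (45.9 against 119 CPM, log2 ratio -1.36, interval -2.08 to -0.70), Sema5a (68.0 against 157 CPM, -1.19, interval -1.79 to -0.64) and Unc5d (108 against 166 CPM, -0.62, interval -1.12 to -0.13). The 29 MullerControl GABAergic-like cells were under the 50 set for a comparison.

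Genes that work with these families outside them were read from 5 lists, and 14.5% of all genes had some leading class (4.21% Müller-like, 2.65% amacrine-like and 4.38% microglia-like). In Müller-like cells 3 of 17 measured genes of netrin signalling and related receptors had that class as leading: Neo1, a netrin and RGM receptor (289 and 368 CPM), Rgma, its repulsive ligand (57.5 and 59.8 CPM), and Flrt2, a ligand of Unc5 receptors (94.8 and 106 CPM). Amacrine-like cells led 3 of 11 genes of Eph and ephrin signalling, the exchange factors Vav3 (116 and 92.9 CPM) and Arhgef15 (45.5 and 42.9 CPM) and the adaptor Grip1 (133 and 126 CPM), and 1 of 17 genes of semaphorin signalling, the adhesion molecule L1cam (39.8 and 35.7 CPM). Microglia-like cells led 1 of 10 genes of Slit and Robo signalling, the Robo effector Srgap2 (307 and 367 CPM), and 1 of 16 shared cytoskeletal effectors, the actin regulator Vasp (175 and 185 CPM).

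Between the libraries 3 list genes were past 1.5-fold in Müller-like cells, where 3.81% of all genes were higher and 4.12% lower. Higher and lower genes there were 0 and 1 of 12 for semaphorin signalling (Dpysl4, log2 ratio -0.59), 0 and 0 of 6 for Slit and Robo signalling, 0 and 0 of 10 for netrin signalling, 1 and 0 of 7 for Eph and ephrin signalling (Tiam1, 0.64) and 0 and 1 of 15 for the shared effectors (Vasp, -0.75). In rod-like cells, with 9.31% of all genes higher and 1.52% lower, the counts in the same order were 5 and 0 of 13 (Fyn 1.87, Crmp1 1.51), 1 and 0 of 9 (Srgap3 1.17), 6 and 0 of 11 (Adgrl3 2.60, Ntng1 1.88), 2 and 0 of 7 (Grip1 1.54, Chn1 0.82) and 2 and 0 of 14 (Pak3 1.84, Pak1 0.65). Those lists share the rod-like cells, and so the marker sums, given above. In cone-like cells, with 3.96% and 5.46% of all genes, they were 0 and 1 of 11 (Arhgef11 -0.83), 1 and 0 of 6 (Srgap2 0.70), 0 and 1 of 7 (Dscaml1 -0.59), 0 and 0 of 5 and 0 and 0 of 10.

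Bipolar-like and amacrine-like cells had at most 2 genes past 1.5-fold in any of these lists. Against 2.82% of all genes higher and 5.12% lower, bipolar-like cells had 1 and 1 of 15 (Dpysl3 0.60, Farp2 -0.69), 0 and 1 of 10 (Sdc3 -0.75), 0 and 1 of 14 (Rgmb -0.59), 1 and 0 of 10 (Vav3 1.86) and 1 and 0 of 15 (Pak1 0.66). Sdc3 encodes a heparan sulfate proteoglycan of the cell surface. Against 6.26% and 9.82%, amacrine-like cells had 2 and 0 of 13 (Nrcam 1.45, Dpysl3 1.43), 0 and 1 of 8 (Sdc3 -1.19), 0 and 2 of 13 (Ntng1 -1.17, Dscaml1 -0.79), 0 and 1 of 10 (Sh2d3c -1.003) and 1 and 0 of 14 (Pak3 0.58).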

How the data were processed

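Retinal cells sorted for tdTomato were measured in 2 libraries, 1 per group, with a 10x Genomics 3' kit. The deposited files hold raw counts: UMIs for each gene in each barcode. Per the file headers they were made with Cell Ranger 4.0.0. Seurat 4.0.5, mm10 and GRCh38 stand in the submitters' processing notes with no role given. The barcodes were filtered before deposit, since the lowest total was 500 UMIs in each library. Totals were 25622379 UMIs over 12316 barcodes (Muller) and 23549118 over 11309 (MullerControl). Whether counting used strand is not given in the sources used here, so Plxna4 and its antisense genes may share reads.

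Barcodes under 300 genes or above 20% mitochondrial UMIs (429 and 905) were dropped. The automatic threshold of Scrublet (scanpy 1.11.5) marked almost no cell and did not work, so the highest scores were removed, 0.8% per 1000 barcodes (1130 and 866 cells). A cell joined a class when its marker UMIs passed a share of its total (Müller 1%, rod 1.5%, cone 1%, bipolar 0.5%, amacrine 0.25%, microglia 1%), with at least 3 marker UMIs from at least 2 genes, and when it passed no other gate. Cells passing several gates (642 and 304) or none (915 and 290) were left out. Gate shares were set after the marker distributions had been seen, without the members. UMIs were summed per class and library (CPM with exact Poisson intervals). Ratios had 1 count added to each sum, with an exact conditional binomial interval. Classes needed 50 cells in each library. The members, marker and pathway lists were chosen with earlier results of these data known. Values are given for members with a leading class, for the 4 highest and 4 lowest ratios per class and for the 2 members of each family with most UMIs, plus others named beside a count. Checks on simulated Poisson counts, for genes well above the minimum of 50 UMIs, gave median ratios near the changes put in. They do not cover members near that minimum or spread between animals. Alternatives were other minimum counts, an added count of 0.5, no doublet removal, a stricter gate, at most 10% mitochondrial UMIs, leaving out the top cell, and Leiden clusters (leidenalg 0.10.2, igraph 0.11.9). Promoters are from RefSeq. Tables were made with pandas 2.3.3 and numpy 2.4.6 under Python 3.11.15, intervals with scipy 1.17.1, figures with matplotlib 3.10.9, and matrices held in anndata 0.12.19.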

Additional observations from a re-analysis of the deposited data

Results flagged for a closer look

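The ratio of 3 members between the libraries ran in opposite directions in different classes, each past 1.5-fold. The share of all genes that do so was not counted, and the difference between classes was not tested, since each group is 1 library. Slit2 had a log2 ratio, Muller over MullerControl, of 1.26 in rod-like and 0.74 in amacrine-like cells but -1.31 in bipolar-like cells. Epha8, an Eph receptor, had 1.41 in amacrine-like and -0.59 in bipolar-like cells. With the stricter gate its log2 ratio in amacrine-like cells was 0.53, within 1.5-fold. Sema5a had 1.76 in rod-like and -1.61 in amacrine-like cells. Beside these stand the shares of GABAergic-like cells among amacrine-like cells (51.1% for Muller and 15.5% for MullerControl), the Irx6 level in OFF cone bipolar-like cells (119 and 326 CPM) and the bipolar marker sum in rod-like cells (1046 and 287 CPM), and their part in the ratios was not tested.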

How the results depend on the processing

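Counts of members past 1.5-fold moved with the minimum count and the doublet step. They were 3 in Müller-like cells, all lower, against 6 without doublet removal (3 higher and 3 lower) and 5 with a minimum of 20 UMIs. In rod-like cells they were 9, against 15 without doublet removal, 5 with the stricter gate, 21 with a minimum of 20 UMIs and 4 with 100 UMIs. In cone-like cells they were 2, against 6 with 20 UMIs and 1 with 100 UMIs. In amacrine-like cells they were 12, against 7 with the stricter gate and 19 with 20 UMIs. A lower or higher minimum changes the number of members counted, and the cause of the other shifts was not tested. The 7 in bipolar-like cells and the 15 with a leading class stayed within 1.5 times in the alternatives run. Of 40 named ratios, the 4 highest and 4 lowest per class, those past 1.5-fold kept their direction, and the other called members were not rerun. Of the 40, 8 moved beyond their counting interval with the stricter gate, 1 with at most 10% mitochondrial UMIs and 1 with Leiden clusters. Chosen after seeing the data, the Irx6 split moved the Slit2 ratio in OFF cells from -1.77 over all cells to -0.83 and -0.85. No paired analysis was possible because each group has 1 library. Depth limits the microglia-like cells most (94 and 144 cells, 4 members measured), then the MullerControl amacrine-like cells (187 cells) and the Muller cone-like cells (263 cells), and animals, injections and sorts cannot be told apart from the groups.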
